A study of Homo sapiens with 6 samples.

Results

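The ERBB family of receptor tyrosine kinases and its EGF-type ligands were followed here in A549, a widely used line from a human lung adenocarcinoma, grown in either of 2 hydrogels. The genes were the 4 receptors (EGFR, ERBB2, ERBB3 and ERBB4) and 6 ligands (AREG, EREG, NRG1, TGFA, HBEGF and BTC), and all 10 were found by symbol among the 62703 genes of the count table. One group of 3 libraries came from cells in the hydrogel named AlgLung and the other group of 3 from cells in S-AlgLung. The labels do not spell out what S stands for, and the series title speaks of sulfated matrix in tumours. All 6 libraries are of the same line, kept in DMEM/F12 with serum and antibiotics, and no library from cells outside a hydrogel was part of the comparison. No label says that replicates came from separate cultures, and the p-values reflect the spread among these 6 libraries alone, and that spread may be technical.

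ERBB receptors act as pairs. EGFR binds AREG, EREG, TGFA, HBEGF and BTC, whereas ERBB3 and ERBB4 bind neuregulins such as NRG1, and BTC, HBEGF and EREG also bind ERBB4. ERBB2 has no known soluble ligand and serves as the preferred partner of the others, and ERBB3 has little kinase activity of its own and signals through its partner, mainly to PI3K. The ligands are made as membrane proteins and most are released by metalloproteases. AREG, HBEGF and several NRG1 isoforms bind heparin and heparan sulfate, which are sulfated glycosaminoglycans. In lung adenocarcinoma EGFR and ERBB2 are known as oncogenes.

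Total counts ran from 22978408 to 26495444 per library. S-AlgLung replicate 3 stood apart from the other libraries: MALAT1 and NEAT1, long noncoding RNAs kept in the nucleus, held 0.0264% of its counts and at most 0.00736% elsewhere. Together with the mitochondrial transcripts MT-CO1 and MT-ND4, which made up most of the sum, these RNAs were at 10170 to 13630 CPM with AlgLung and 14330 to 17090 CPM with S-AlgLung, so that sum separated the hydrogels as ERBB3 did, and its part in the ERBB3 result was not tested. MALAT1 was the 1 of these 4 genes called, as higher (log2 fold change 1.24, edgeR adjusted p = 0.0475), with 49.25 CPM in S-AlgLung replicate 3 and at most 13.2 CPM elsewhere. MT-CO1 was at 8741 ± 873.9 and 11910 ± 914 CPM in groups that did not overlap (log2 fold change 0.45, edgeR adjusted p = 0.548). Groups separated in that direction in 10.4% of all 18544 genes tested. Of 6 lung epithelial markers, the summed level was 10600 to 13980 CPM (counts scaled to a common library total) with AlgLung and 4615 to 12320 CPM with S-AlgLung, lowest in S-AlgLung replicate 3. Most of that sum was keratin RNA, and KRT7 was the 1 epithelial marker called, as lower (log2 fold change -1.44, edgeR adjusted p = 0.00124). EPCAM, an epithelial adhesion gene, was at 1.95 ± 0.406 CPM with AlgLung and 3.83 ± 1.37 with S-AlgLung. The summed level was at most 0.338 CPM for 5 leukocyte markers, 3.77 for 5 endothelial markers and 9.35 for 6 fibroblast markers. None of these markers was at 0 in all 6 libraries, but DCN, TYROBP and KDR had 1 count each in total.

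ERBB3 was the one receptor or ligand gene called different between the hydrogels, and it was about 2-fold higher in S-AlgLung. Of the 10 genes, 9 had enough counts to test, and 1 of these 9 was called higher and 0 lower. Over all 18544 genes tested, 5.14% were called (edgeR, adjusted p under 0.05), 3.15% as higher and 1.99% as lower. At an unadjusted p under 0.05 the same fit gave 2 of the 9 genes, ERBB3 and HBEGF, where it gave 14.9% of all tested genes. The Wald test of DESeq2 and limma-voom likewise called 1 of the 9 genes higher and 0 lower. ERBB4 (ENSG00000178568, chromosome 2, 211375717 to 212538841, minus strand) had 0 counts in every library, which allows at most 0.113 to 0.131 CPM (3 counts per library, counting error only). This limit is per raw library total, without the scaling factors used for the other CPM.

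**Figure D1:**
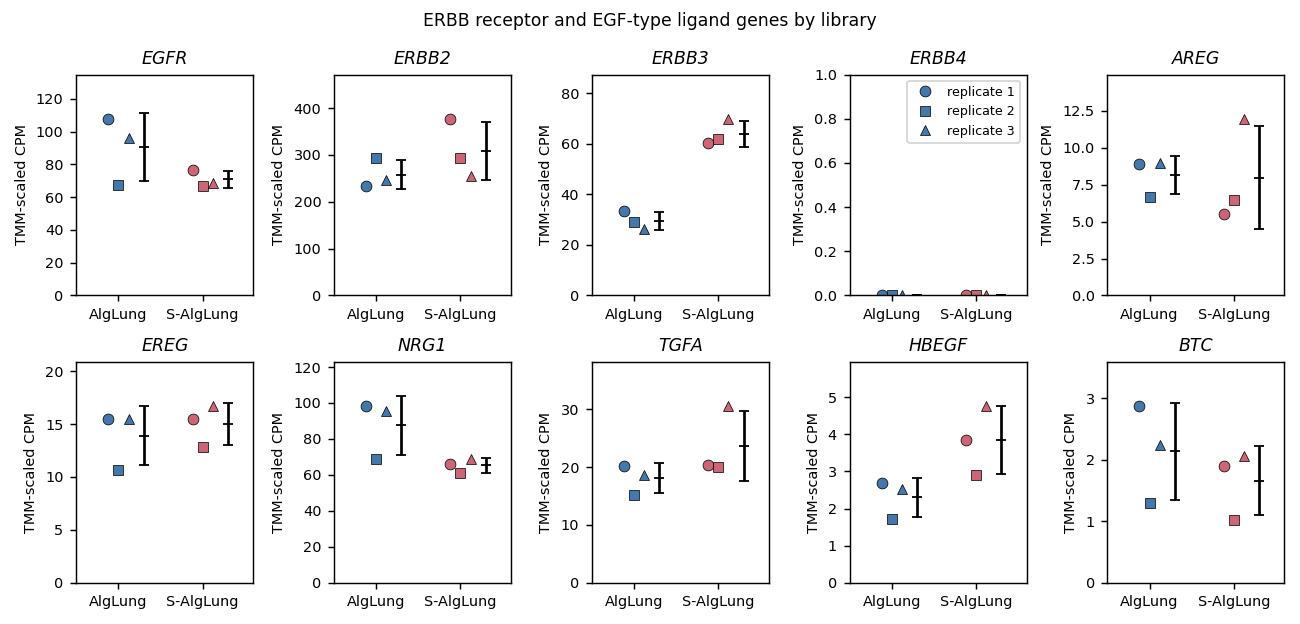
Level of each ERBB receptor and EGF-type ligand gene in each library, as CPM scaled by TMM factors (vertical axes from 0, 1 scale per gene). Symbols mark the replicate number, blue AlgLung and red S-AlgLung, with the mean and SD (n = 3) beside each group; ERBB3 and HBEGF have groups that do not overlap, and ERBB4 is at 0.

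Among the receptors, ERBB3 (ENSG00000065361, chromosome 12, 56076799 to 56103505, plus strand, GRCh38) was at 33.4, 28.9 and 26.2 CPM in AlgLung replicates 1, 2 and 3 and at 60.3, 61.9 and 70.0 CPM in S-AlgLung. These CPM are scaled by TMM factors, which correct the library totals for differences in composition. Every S-AlgLung library was above every AlgLung library; groups separated in that direction in 10.4% of all tested genes. The means were 29.5 ± 3.61 and 64.0 ± 5.20 CPM (SD, n = 3). The difference was 1.12 on the log2 scale (SE 0.22, edgeR adjusted p = 0.00116), or 2.17-fold with a 95% interval of 1.597 to 2.95. Without any single library the log2 fold change was 0.99 to 1.17 and the gene stayed called, with adjusted p of 3.685e-05 without S-AlgLung replicate 3 and 0.0498 without AlgLung replicate 3. Its value was 1.02 when S-AlgLung replicate 3, the library that stood apart, was left out.

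Part of the last exons of ERBB3 is also annotated as another gene, so the assignment of its reads was examined. The gene ENSG00000257411, which has no symbol, lies on the same strand and shares bases with exon 27 of the 28 exons of the main ERBB3 transcript (GENCODE release 29). Of its 489 exonic bases, 31 are shared with ERBB3 and 458 with PA2G4, a neighbouring gene for a growth-regulating RNA-binding protein. The shared stretch, chr12:56101331-56101361 on the plus strand of GRCh38, is coding in ERBB3 and is shown because it is the only exonic stretch that both genes share; capitals mark the 22 bases that are coding in both gene models.
ERBB3 exon 27, shared bases: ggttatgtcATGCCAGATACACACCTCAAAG
ERBB3 itself has 11711 exonic bases. ENSG00000257411 had 1777, 1886 and 2166 counts in AlgLung and 1618, 2577 and 2054 in S-AlgLung, more than ERBB3 in every library. Its counts were 46.7% to 50.8% of those of PA2G4 in the 6 libraries, but between 104% and 342% of those of ERBB3. Its log2 fold change was 0.07 (95% interval -0.41 to 0.56, edgeR adjusted p = 0.945), whereas that of ERBB3 was 1.12. How many ERBB3 reads fall on the 31 bases cannot be read from counts per gene.

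EGFR (ENSG00000146648, chromosome 7, 55019017 to 55211628) was at 107.8, 67.5 and 96.2 CPM with AlgLung and 76.7, 66.8 and 68.7 CPM with S-AlgLung. The S-AlgLung libraries lay close together, and AlgLung replicate 2 fell among them while the other 2 AlgLung libraries lay above. The log2 fold change was -0.36 (95% interval -0.83 to 0.12, edgeR adjusted p = 0.540), so a drop to 0.561-fold and a slight rise to 1.09-fold both lie inside the interval. EGFR-AS1, which shares 186 exonic bases on the other strand, had 4.19% to 4.67% of the EGFR counts in every library. Whether reads were counted by strand is not stated, and without strand the reads of the pair cannot be told apart.

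ERBB2 (ENSG00000141736, chromosome 17, 39687914 to 39730426), the partner receptor, was at 234.0, 293.7 and 246.2 CPM with AlgLung and 377.3, 293.2 and 255.2 CPM with S-AlgLung. The groups overlapped, with S-AlgLung replicate 1 alone above all AlgLung libraries. The log2 fold change was 0.26 (95% interval -0.26 to 0.77, edgeR adjusted p = 0.733), and 0.09 without S-AlgLung replicate 1. MIEN1, on the other strand, shares 571 exonic bases with ERBB2 and had 0.347 times its counts, so the ERBB2 level carries that uncertainty; the log2 fold change of MIEN1 was -0.0035 (edgeR adjusted p = 0.9987).

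**Figure D2:**
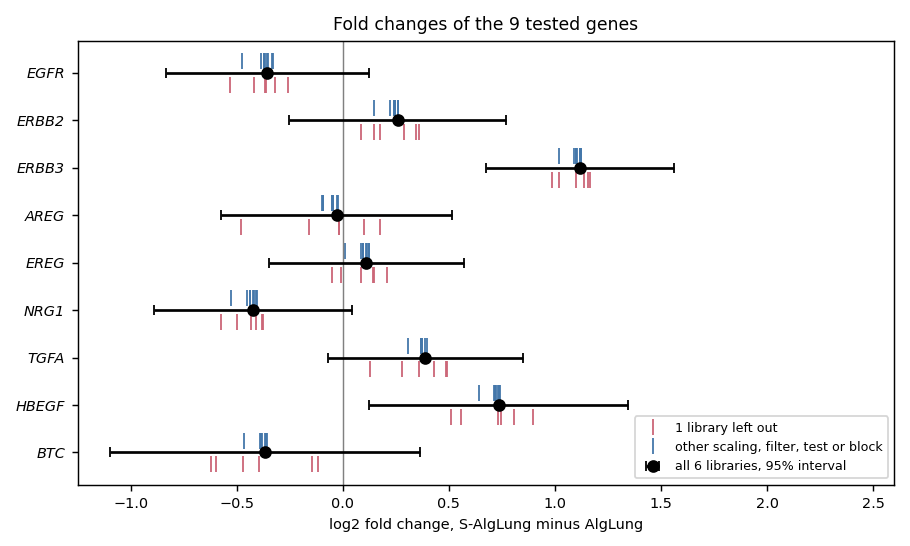
Log2 fold change (horizontal axis, S-AlgLung minus AlgLung) of the 9 tested genes, with the 95% interval from edgeR over all 6 libraries (black), the value with each library left out (red ticks) and the value under each other scaling, filter, test or block (blue ticks). For ERBB3 the interval runs from 0.68 to 1.56; for HBEGF it excludes 0 before adjustment, and for the other 7 genes it includes 0.

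Levels of different genes were compared per length, as TPM, an abundance scaled by length within each library, computed from the counts and the deposited exon lengths. ERBB2 was the most abundant of the 10 genes in every library, at 60.4 ± 4.12 TPM in AlgLung and 64.6 ± 7.59 in S-AlgLung (SD, n = 3). ERBB3 moved up in the order. In AlgLung it was at 7.11, 5.62 and 5.63 TPM and held rank 6 or 7 of 10, below EGFR (13.9 ± 3.78 TPM) in each library. In S-AlgLung it was at 10.2, 10.6 and 15.7 TPM and held rank 2 to 4, above EGFR (9.73 ± 1.46 TPM) in each library. This order is read within a library and does not depend on scaling between libraries. Next to ERBB2 in AlgLung came EGFR, AREG (12.1 ± 2.53 TPM), NRG1 (9.99 ± 2.32), TGFA (8.97 ± 1.697), ERBB3 (6.12 ± 0.859) and EREG (5.94 ± 1.47). Neighbours in that order differed by less than the larger SD of the pair, except ERBB2 from EGFR and TGFA from ERBB3. These SDs are spreads between libraries. Within each AlgLung library EGFR held rank 2, AREG rank 3, NRG1 rank 4 and TGFA rank 5 of 10. BTC (1.98 ± 0.801) and HBEGF (1.89 ± 0.511) were the lowest genes with counts and did not differ from each other beyond their SD. The exon length is the union over all isoforms, 21398 bases for NRG1, so a gene with many alternative exons is understated on this scale.

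Within each library, the ratio of ERBB3 to ERBB2 reads per kb was 0.126, 0.0867 and 0.0940 in AlgLung and 0.141, 0.186 and 0.242 in S-AlgLung. All 3 S-AlgLung ratios were above the AlgLung ratios, and the log2 difference was 0.88 (2-sided exact permutation test, p = 0.1, the smallest that 3 against 3 can give). The ratio of EGFR to ERBB2 was 0.298, 0.149 and 0.253 in AlgLung and 0.132, 0.148 and 0.174 in S-AlgLung, with overlapping groups. Its log2 difference was -0.58 (2-sided exact permutation test, p = 0.2; over the 2 ratios the adjusted values are 0.2 and 0.2).

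**Figure D3:**
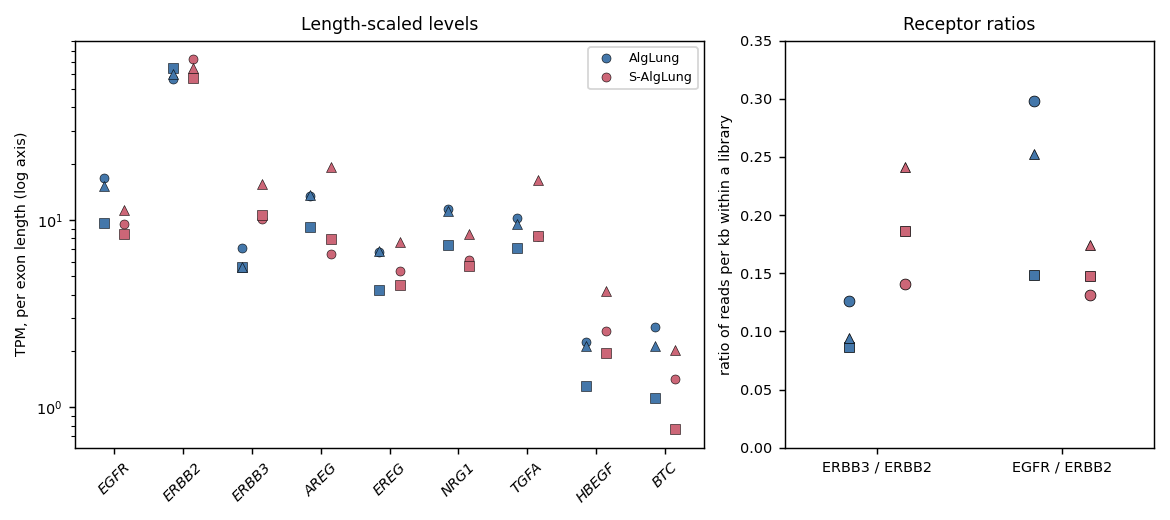
Left, TPM (log axis) of the 9 genes with counts in each AlgLung (blue) and S-AlgLung (red) library; right, ratios of reads per kb of ERBB3 and of EGFR to ERBB2 within each library, with symbols for replicates 1 (circle), 2 (square) and 3 (triangle). ERBB2 sits highest throughout, and ERBB3 to ERBB2 ratios are 0.0867 to 0.126 with AlgLung and 0.141 to 0.242 with S-AlgLung.

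No ligand gene was called, and the 6 ligands went in different directions: their log2 fold changes ran from -0.42 for NRG1 to 0.73 for HBEGF, with a median of 0.04 against 0.03 over all tested genes. NRG1 (ENSG00000157168, chromosome 8, 31639222 to 32855666), the neuregulin that binds ERBB3, was at 98.3, 68.8 and 95.4 CPM with AlgLung and 66.1, 60.9 and 68.9 CPM with S-AlgLung. S-AlgLung replicates 1 and 2 were below every AlgLung library, and replicate 3 lay just above the lowest of them, so the groups overlapped by that library alone. The log2 fold change was -0.42 (95% interval -0.89 to 0.04, edgeR adjusted p = 0.407) and -0.38 to -0.57 with single libraries left out. ERBB3 and its ligand gene had log2 fold changes of opposite sign, of which only that of ERBB3 passed the test.

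HBEGF (ENSG00000113070, chromosome 5, 140332843 to 140346603, minus strand), the heparin-binding ligand of EGFR and ERBB4, was at 2.68, 1.71 and 2.53 CPM with AlgLung and 3.85, 2.91 and 4.76 CPM with S-AlgLung. The groups did not overlap, with S-AlgLung above, as in 10.4% of all tested genes. However, the lowest S-AlgLung and the highest AlgLung library differed little. The log2 fold change was 0.73 (SE 0.30, 95% interval 0.12 to 1.35), with an unadjusted p of 0.0202 and an edgeR adjusted p of 0.206, which missed the threshold. It was 0.51 without S-AlgLung replicate 3. The gene rested on 38 to 134 counts per library.

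TGFA (ENSG00000163235, chromosome 2, 70447284 to 70554193, minus strand), an EGFR ligand made by many epithelial tumours, was at 20.3, 15.2 and 18.7 CPM with AlgLung and 20.4, 20.1 and 30.6 CPM with S-AlgLung. Only S-AlgLung replicate 3 lay clearly above the rest. TGFA differed by 0.39 on the log2 scale (95% interval -0.07 to 0.85, edgeR adjusted p = 0.455) and 0.13 without that library.

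AREG and EREG lie close together on chromosome 4 (74445136 to 74455005 and 74365145 to 74388749, both on the plus strand) and encode the EGFR ligands amphiregulin and epiregulin. AREG was at 8.89, 6.66 and 8.94 CPM with AlgLung and 5.49, 6.46 and 11.97 CPM with S-AlgLung. The S-AlgLung libraries held both the lowest and the highest value, and the log2 fold change of -0.03 (95% interval -0.57 to 0.52, edgeR adjusted p = 0.985) became -0.48 without S-AlgLung replicate 3. EREG was at 15.5, 10.7 and 15.5 CPM with AlgLung and 15.5, 12.8 and 16.7 CPM with S-AlgLung, with a log2 fold change of 0.11 (95% interval -0.35 to 0.57, edgeR adjusted p = 0.903). Its groups overlapped over most of their range. BTC (chromosome 4, 74744759 to 74794523, minus strand), betacellulin, was at 2.88, 1.30 and 2.24 CPM with AlgLung and 1.90, 1.01 and 2.06 CPM with S-AlgLung. Its log2 fold change was -0.37 (95% interval -1.10 to 0.36, edgeR adjusted p = 0.733) on 24 to 75 counts per library, the widest interval of the 9 genes.

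The order of the libraries was shared by several of these genes. AREG, EREG, TGFA, HBEGF and ERBB3, 5 of the 9 genes with counts, were highest in S-AlgLung replicate 3, the library with the raised share of nuclear RNA. The share of all tested genes that were highest in that library was not counted, so this cannot be called particular to these genes. EGFR, NRG1 and BTC were highest in AlgLung replicate 1 and lowest in S-AlgLung replicate 2. EREG, TGFA and HBEGF were lowest in AlgLung replicate 2. The part of the nuclear RNA share in these levels was not tested.

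Promoter sequences were at hand for 8 of the 10 genes (RefSeq, GRCh38.p14; 250 bases before to 50 after the start). The windows of AREG, EREG and HBEGF are shown, as 3 of the ligands that were highest in the same library, 5′ to 3′ on the gene's strand. Capitals mark the TATA motif TATAAA and the cyclic AMP response element TGACGTCA, which do not overlap each other here. Both strands were searched.
AREG, chr4:74444886-74445185 (+): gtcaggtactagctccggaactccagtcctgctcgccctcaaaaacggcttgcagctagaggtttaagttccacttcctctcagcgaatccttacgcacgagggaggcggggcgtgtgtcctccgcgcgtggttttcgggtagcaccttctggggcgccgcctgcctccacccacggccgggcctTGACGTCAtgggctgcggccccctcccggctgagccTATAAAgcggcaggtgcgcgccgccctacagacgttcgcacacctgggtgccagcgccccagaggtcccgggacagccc
EREG, chr4:74364895-74365194 (+): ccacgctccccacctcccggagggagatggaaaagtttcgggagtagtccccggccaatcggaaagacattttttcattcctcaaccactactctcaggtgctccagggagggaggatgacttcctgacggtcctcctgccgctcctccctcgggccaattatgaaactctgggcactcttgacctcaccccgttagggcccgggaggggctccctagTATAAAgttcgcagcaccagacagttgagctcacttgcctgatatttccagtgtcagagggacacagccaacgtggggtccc
HBEGF, chr5:140346554-140346853 (-): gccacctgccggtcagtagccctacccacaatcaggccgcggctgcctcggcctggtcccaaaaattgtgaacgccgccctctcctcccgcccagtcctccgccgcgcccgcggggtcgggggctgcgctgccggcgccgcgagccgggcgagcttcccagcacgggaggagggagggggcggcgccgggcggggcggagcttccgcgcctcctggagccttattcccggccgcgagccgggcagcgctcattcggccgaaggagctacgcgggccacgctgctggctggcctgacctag
The AREG and EREG windows each held 1 TATA motif, 29 and 32 bases before the start, and the AREG window held 1 cyclic AMP response element, 65 bases before it. TGFA, the other ligand highest in that library, had 2 windows, and neither held the TATA motif or the response element. Of 35116 promoter windows of this length, 11.5% held the TATA motif and 1.85% the response element. The AP-1 motif TGANTCA, present in 7.71% of the windows, was in none of the 5 windows of AREG, EREG, TGFA and HBEGF. Among the receptors, window 2 of 2 for EGFR held 2 AP-1 and 2 TATA motifs, and the ERBB2 window held 1 AP-1 motif. The HBEGF window held neither marked motif and had 75.0% G and C bases, against 57.7% for EREG. These are matches of letters, not shown sites.

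Genes around the receptors were read from 5 lists of the pathway. Among 3 tested of 5 other ERBB ligands, 0 were called; EPGN and NRG3 had 0 counts in all libraries. EGF itself was at 4.14, 2.29 and 3.02 CPM with AlgLung and 2.22, 2.15 and 2.17 CPM with S-AlgLung (log2 fold change -0.53, 95% interval -1.16 to 0.09, edgeR adjusted p = 0.446). The S-AlgLung values were nearly the same in the 3 libraries and all below AlgLung, as in 8.05% of all tested genes. NRG2 was at 3.87 ± 0.376 and 4.71 ± 0.760 CPM (log2 fold change 0.28, edgeR adjusted p = 0.716). Of 12 tested of 14 genes of ligand shedding and trafficking, 0 were called in edgeR and 0 had an unadjusted p under 0.05, against 14.9% of all tested genes. ADAM10, a protease that releases EGF and BTC, was at 105.4 ± 18.2 CPM with AlgLung and 85.9 ± 9.01 with S-AlgLung (log2 fold change -0.30, edgeR adjusted p = 0.643). CD9, a tetraspanin that associates with membrane-bound HBEGF, was at 119.0 ± 1.52 and 93.5 ± 24.4 CPM (log2 fold change -0.35, edgeR adjusted p = 0.566).

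LRIG1 and LRIG3, of a family of membrane proteins that modulate receptor tyrosine kinases, were the called genes among 17 tested of 18 genes of receptor restraint and turnover. Both were called higher, with 0 lower and a list median of -0.04. LRIG2, of the same family and list, was not called (log2 fold change -0.09, edgeR adjusted p = 0.945), and its groups overlapped. Among all tested genes, 3.15% were called higher and 1.99% lower. LRIG1, which promotes degradation of ERBB receptors, was at 13.7, 9.53 and 11.1 CPM with AlgLung and 18.0, 16.6 and 23.6 CPM with S-AlgLung (log2 fold change 0.76, SE 0.23, edgeR adjusted p = 0.0457). LRIG3 was at 8.85, 6.52 and 7.33 CPM with AlgLung and 10.97, 10.9 and 18.2 CPM with S-AlgLung (log2 fold change 0.82, SE 0.24, edgeR adjusted p = 0.0454). In neither gene did the groups overlap, and S-AlgLung lay above, as in 10.4% of all tested genes. Both calls were lost without any one library other than S-AlgLung replicate 2. Leaving out S-AlgLung replicate 3 gave log2 fold changes of 0.56 (adjusted p = 0.0862) and 0.50 (0.177). Both were also lost with DESeq2 size factors (adjusted p = 0.0524 and 0.0540), total counts (0.263 and 0.247) and limma-voom (0.0595 and 0.0764), and that of LRIG1 with upper-quartile factors (0.0564). SLC25A26, on the other strand, shares 2669 exonic bases with LRIG1 and had 1.44 times its counts. The unscaled counts of SLC25A26 were 479, 443 and 442 with AlgLung and 463, 578 and 885 with S-AlgLung. Those of LRIG1 were 357, 212 and 268 with AlgLung and 396, 392 and 664 with S-AlgLung. Both genes were highest in S-AlgLung replicate 3, and the part of SLC25A26 reads in the LRIG1 call was not tested. SH3KBP1, an adaptor of receptor endocytosis, was at 58.2 ± 5.76 CPM with AlgLung and 40.1 ± 6.69 with S-AlgLung (log2 fold change -0.54, edgeR adjusted p = 0.206). Its groups did not overlap, with S-AlgLung below, as in 8.05% of all tested genes. The log2 fold change of SOCS4, a suppressor of EGFR signalling, was -0.39 (edgeR adjusted p = 0.509).

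Of 34 adaptor and kinase cascade genes, all tested, 0 were called in edgeR, and 2 had an unadjusted p under 0.05, against 14.9% of all tested genes; the list median was 0.06. PIK3R1, the regulatory subunit of PI3K, was at 10.6 ± 2.07 and 7.57 ± 1.15 CPM (log2 fold change -0.49, edgeR adjusted p = 0.330). Without S-AlgLung replicate 3, MAPK3, the gene of ERK1, was called higher (0.80, adjusted p = 0.00255), against 0.52 (0.350) with all libraries.

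Of 19 genes known as ERK output, all tested, 4 were called higher and 0 lower, with a list median of 0.11. Over all tested genes the shares were 3.15% higher and 1.99% lower. FOS, an immediate early transcription factor gene, was at 23.3, 27.9 and 19.5 CPM with AlgLung and 60.8, 64.2 and 133.8 CPM with S-AlgLung (log2 fold change 1.87, SE 0.27, edgeR adjusted p = 3.3e-05). EGR1 was at 1.65, 1.62 and 1.90 CPM with AlgLung and 4.94, 4.81 and 10.98 CPM with S-AlgLung (log2 fold change 2.01, SE 0.32, edgeR adjusted p = 9.931e-05). DUSP5, a phosphatase of ERK, rose by 1.14 (SE 0.22, edgeR adjusted p = 0.00147), from 33.2 ± 2.54 to 73.1 ± 14.98 CPM. IER3 rose by 0.93, from 90.4 ± 12.1 to 172.2 ± 9.18 CPM (edgeR adjusted p = 0.0138), a call lost without AlgLung replicate 1 (0.162), AlgLung replicate 3 (0.255) or S-AlgLung replicate 1 (0.0554); HCG20 and IER3-AS1 on the other strand had 0.367 and 0.344 times its counts. FOS, EGR1 and DUSP5 were highest in S-AlgLung replicate 3, as was ERBB3. Without that library the log2 fold changes of FOS, EGR1 and DUSP5 were 1.38, 1.47 and 0.95, and these genes stayed called. Without S-AlgLung replicate 2, SPRY2, an inhibitor of the pathway, was also called higher (0.97, adjusted p = 0.00772), against 0.75 (0.0809) with all libraries; with no low-count filter it was also called (0.73, adjusted p = 0.0432). DUSP6 and ETV4, which also respond to ERK, had log2 fold changes of 0.11 and -0.0032 (edgeR adjusted p = 0.905 and 0.9995).

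**Figure D4:**
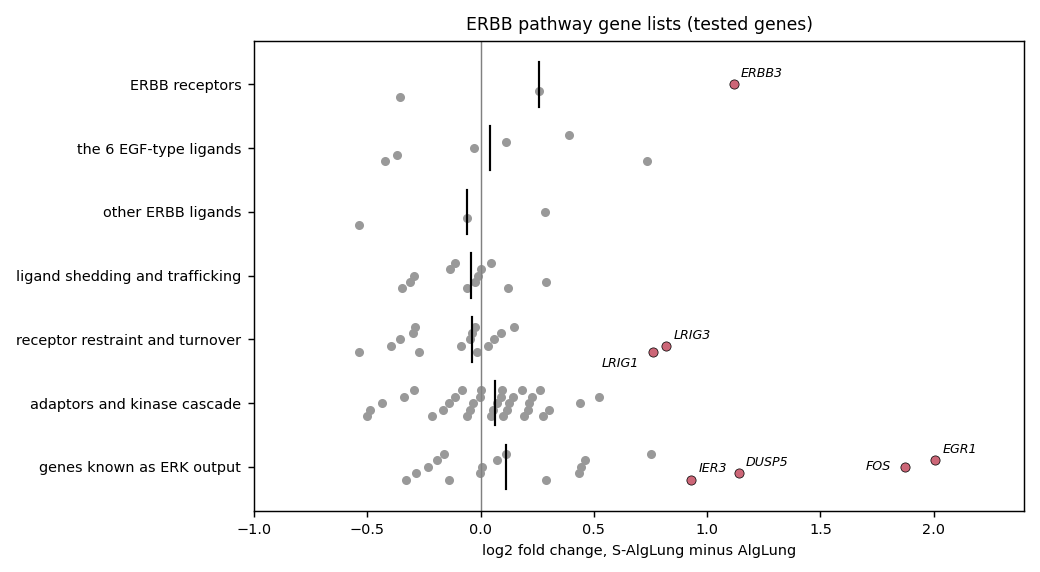
Log2 fold changes (horizontal axis, S-AlgLung minus AlgLung) of the tested genes of each list; grey points were not called, red points with names had an edgeR adjusted p under 0.05, vertical bars are list medians, and points are offset vertically for legibility. The called genes are ERBB3, LRIG1, LRIG3, FOS, EGR1, DUSP5 and IER3, all to the right of 0.

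The genes whose log2 CPM followed ERBB3 most closely over the 6 libraries, among 11609 others with a symbol and a mean log2 CPM of at least 2, were DIRC3-AS1 (Pearson r = 0.998), FAXDC2 (0.995) and PKP2 (0.994). All 3 had higher means in S-AlgLung, from 10.7 to 58.0 CPM for DIRC3-AS1, 12.6 to 41.8 for FAXDC2 and 3.75 to 6.54 for PKP2, a desmosome gene. Any gene that differs between the hydrogels with little spread will score high over these points, which share their libraries and depth. DIRC3-AS1 is an antisense gene, and its reads carry the uncertainty of the unknown strand setting.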

How the data were processed

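Gene expression was measured by RNA-seq in 6 libraries of A549 cells, from TRIzol extracts cleaned on a kit column, per the labels' protocols. STAR 2.7.3a, featureCounts and GRCh38 are named in the submitters' processing notes. The featureCounts version, the annotation release and any strand option were not among the sources. In the table the authors deposited, values are raw counts per gene with exon coordinates and lengths. AlgLung replicate 1 had 2 columns, which differed in 0 genes and were used as 1 sample. Gene symbols came from a name table that matched 62625 IDs, 42300 of them with a symbol.

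Genes passing filterByExpr (minimum count 10) were scaled by TMM, and edgeR 4.0.16 (R 4.3.3) gave quasi-likelihood F tests over all 6 libraries, without a block, with Benjamini-Hochberg adjustment over all 18544 genes. SE is the log2 fold change over the square root of F, and intervals use the fit's degrees of freedom. The script was tested on simulated data. The members and gene lists were chosen with earlier results of these data known. Named genes were the 10 members, and up to 4 genes of smallest p in a list with a call and 2 otherwise. The 3 genes most like a called member and overlapping genes were also named. MAPK3, SPRY2, DUSP6, ETV4, LRIG2, EPCAM, KRT7, MALAT1, TALAM1, NEAT1, MT-CO1 and MT-ND4 were named after their values were seen. A gene that the rule names in the kinase cascade list is not reported here. Alternatives were other scalings, DESeq2 1.42.0, limma-voom (limma 3.58.1), other count filters, the replicate block, each library left out and an adjusted p under 0.01.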

Additional observations from a re-analysis of the deposited data

How the results depend on the processing

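The call of ERBB3 as higher, and of no other member, was kept in all 15 alternatives run, with log2 fold changes of 0.99 to 1.17. Scaling by total counts moved the median of all genes by -0.10 on the log2 scale; ERBB3 was then at 1.02. AREG ran from -0.48 to 0.175 with 1 library left out (0.175 and 0.098 without S-AlgLung replicates 1 and 2), and EREG from -0.051 to 0.21 (-0.051 without AlgLung replicate 2 and -0.0093 without S-AlgLung replicate 3). Over all genes, 584 were called higher and 369 lower; total counts gave 333 higher, an adjusted p under 0.01 gave 323 and 217, and leaving out 1 library gave 289 (without AlgLung replicate 1) to 891 (without S-AlgLung replicate 3) higher and 244 (without AlgLung replicate 2) to 662 (without S-AlgLung replicate 3) lower. Of the 2 restraint genes called higher, 0 were left with DESeq2 size factors, total counts, limma-voom or the stricter threshold, 1 with upper-quartile factors, and 0 to 2 with 1 library left out; in the kinase cascade list, leaving out 1 library gave 0 to 1 higher and 0 to 1 lower. A stricter threshold calls fewer genes by construction; for the other changes the cause was not tested.

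Whether the replicate numbers pair the libraries could not be decided, because deviations from the means of groups of 3 are too few. Same-numbered libraries correlated at 0.07, 0.29 and 0.04 in these deviations, and differently numbered ones at -0.34 to 0.21. S-AlgLung replicates 1 and 2 correlated best with the AlgLung library of their own number, but S-AlgLung replicate 3 did so with AlgLung replicate 1 (0.21). A fit with the replicate block called 800 genes higher and 500 lower, against 584 and 369 without it. With the replicate block ERBB3 was at 1.12 (adjusted p = 3.26e-05), the ratio differences were 0.88 and -0.58 (exact sign flips, p = 0.25 for both, the smallest that 3 pairs can give), and SPRY2 was called higher (0.67, adjusted p = 0.0321). Depth limits BTC and HBEGF most, with 24 to 134 counts per library.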
